A study of Mus musculus with 4 samples.

Results

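The gene for CTCF itself, its germline paralogue and 7 genes for proteins that work with CTCF on chromatin were examined for CTCF binding in the embryonic mouse forebrain. The 9 genes were Ctcf, Ctcfl, Zfp143, Yy1, Maz, Patz1, Chd8, Bptf and Atrx, out of 21883 protein-coding genes on chromosomes 1 to 19, X and Y. They were taken from a fixed list of names, and each was found in the RefSeq gene table. The rule used names and positions and no measured value, although earlier results of these data were known when the names were chosen.

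The data came from chromatin immunoprecipitation and sequencing (ChIP-seq) at embryonic day 13.5. The 4 samples were 1 anti-CTCF library with its input from telencephalon, and the same pair from the medial ganglionic eminence (MGE), the ventral forebrain region where many cortical interneurons are born. No genotype, strain or treatment is given, and the input libraries are not analysed here. Each CTCF library is a single sample, so differences between the tissues have no replicate error and were not tested. The libraries were also made with different kits, and the track name of the telencephalon list reads e14, so tissue, kit and stage cannot be told apart. The dissection text describes the MGE for every sample, and peak lists hold no expression, so the tissue labels could not be checked against marker genes. The MGE list held 25625 usable peaks and the telencephalon list 31886. Read depth is unknown.

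CTCF is a DNA-binding protein with an array of zinc fingers. It stops cohesin as cohesin extrudes chromatin loops, and so sets many loop anchors and domain borders. Several other zinc finger proteins bind near CTCF at promoters or loop anchors, and chromatin remodelling enzymes move or exchange the nucleosomes around such sites. CTCF is needed for the survival and patterned gene expression of forebrain progenitors and neurons.

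CTCF peaks lay at the ends of the same 4 members in both tissues, and at Zfp143 in MGE as well. A gene-end peak is one that overlaps the 1 kb either side of the lower or the upper end of the annotated gene. In the MGE list 5 of 9 members had one, namely Ctcf, Zfp143, Patz1, Chd8 and Bptf (55.6%, exact 95% Clopper-Pearson interval 21.2 to 86.3%). Among all protein-coding genes the share was 12.1%. In the telencephalon list 4 of 9 had one, namely Ctcf, Patz1, Chd8 and Bptf (44.4%, interval 13.7 to 78.8%), against 19.3% of all genes. These 4 carried one in each tissue, as did 10.5% of all genes. Both shares lay above those of all genes, and the telencephalon interval contains the value of all genes. With ends of 500 bp the counts were 3 and 3, without Patz1 and Zfp143, against 8.69% of all genes in MGE and 14.5% in telencephalon. With ends of 5 kb they were 7 and 7, against 29.6% and 40.9%. The intervals cover counting error and treat genes as independent. With 9 genes, 1 gene more or less moves a share by over 10 percentage points.

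Inside the genes the lists differed more when peaks of all widths were counted. Peaks overlapped the gene body of 6 of 9 members in the MGE list (66.7%, interval 29.9 to 92.5%) and of 8 of 9 in the telencephalon list (88.9%, 51.8 to 99.7%). The shares over all protein-coding genes were 31.4% and 39.1%. Longer genes hold peaks more often, and among genes of like length to each member (from 0.8 times its span up to its span divided by 0.8) the shares averaged 41.7% in MGE, from 13.8% for Maz to 73.4% for Atrx. In telencephalon they averaged 51.8%, from 21.2% to 79.9%, so the MGE interval contains the average for like length and the telencephalon interval begins at it. Yy1 and Maz made the difference, each with 1 telencephalon peak in its body and none in the MGE list. With 50 kb either side of the gene, 8 of 9 members had a peak in each list, against 80.3% of all genes in MGE and 82.8% in telencephalon. Atrx was the exception in both. These window shares were near those of all genes.

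**Figure D1:**
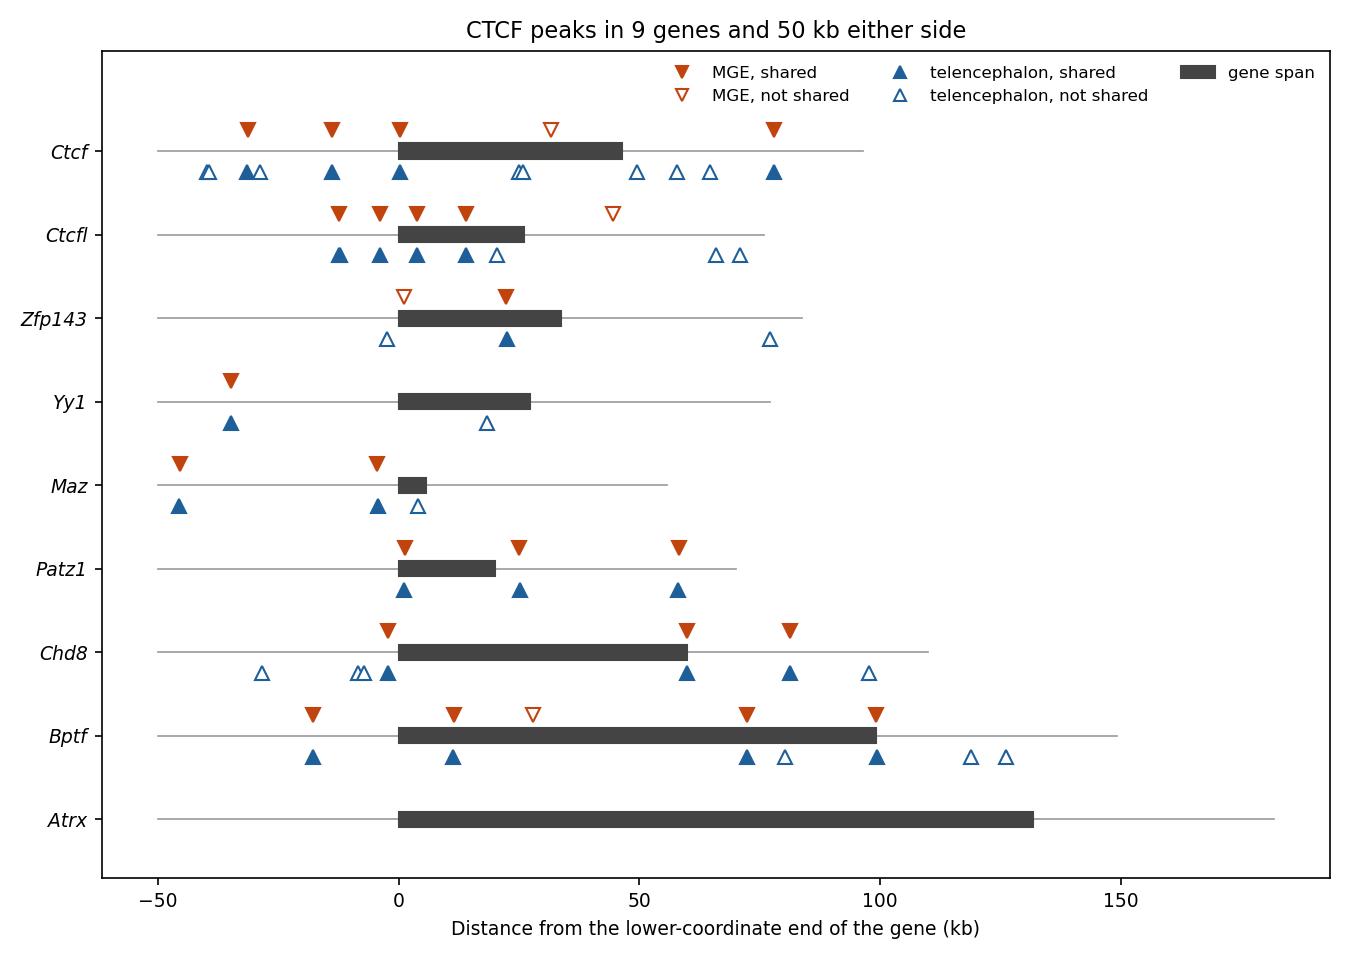
CTCF peaks in the 9 genes and 50 kb either side, by distance in kb from the lower-coordinate end of each gene. Triangles mark peak midpoints and do not show width: filled ones share at least 1 bp with the opposite list, open ones do not. By that rule the filled symbols of the lists stand opposite each other. Most open ones belong to telencephalon, and Atrx has none.

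Ctcf had more telencephalon peaks around it than any other member. Its gene lies at chr8:105636474-105682922 in mm10, on the forward strand. A shared peak lay at its annotated start site, at chr8:105636496-105637086 in MGE (591 bp, width percentile 98.1 in that list) and at chr8:105636570-105636895 in telencephalon (326 bp). The MGE peak ran from 42 bp before the start site to 548 bp after it. The telencephalon peak lay wholly inside it, from 32 to 357 bp after the start site. Both intervals therefore sit mainly downstream of the start, in the first stretch of the gene.

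The 186 bases just outside the annotated Ctcf gene (chr8:105636288-105636473, forward strand, RefSeq on GRCm38.p6, which has mm10 coordinates) are shown because they are the upstream promoter of the CTCF gene itself and hold letters that CTCF can contact. Capitals mark AGGNGGC, a loose form of the CTCF core, on the opposite strand. They lay 141 bp before the start site and outside the peaks of both lists.
Ctcf: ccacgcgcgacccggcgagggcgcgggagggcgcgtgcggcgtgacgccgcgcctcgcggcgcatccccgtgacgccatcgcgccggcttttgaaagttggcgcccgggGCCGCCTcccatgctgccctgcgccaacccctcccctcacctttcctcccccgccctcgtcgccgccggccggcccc
The window from 250 bases before to 50 bases after the start site was GC-rich, at 75.3% G and C, against a median of 52.7% over 32851 promoter windows.

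In the whole 146.4 kb window of Ctcf there were 5 MGE peaks and 12 telencephalon peaks, of which 4 in each list were shared. The shared ones lay at the Ctcf start, at the start site of Ripor1 (chr8:105604877-105605280 in MGE, 404 bp), at the end of Ripor1 nearest to Ctcf (chr8:105622325-105622792, 468 bp) and inside Gfod2 (chr8:105714186-105714524, 339 bp). Ripor1 encodes a regulator of the GTPase RhoA. The peak at the end of Ripor1 lay 13682 bp from Ctcf in MGE and 13548 bp in telencephalon, where it was 717 bp wide (percentile 98.6). The remaining 8 telencephalon peaks had no MGE partner. Of these, 3 lay in Ripor1, 2 in Ctcf, 2 in Carmil2 and 1 over both Acd and Pard6a, with widths from 202 to 325 bp. The single unshared MGE peak (chr8:105667913-105668156), inside Ctcf, had that list's narrowest width.

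The density at Ctcf was also set beside genes of like length. Of 2073 such genes, 0.724% had as many telencephalon peaks as Ctcf or more, and the median was 3. For the MGE list 7.81% had as many or more than 5, with a median of 2. When peaks of at most the narrowest MGE width were left out of both lists, Ctcf held 9 telencephalon and 4 MGE peaks, and the shares were 0.724% and 11.1%. Neighbouring genes have peaks in common, so these shares describe the locus and are not tests.

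Ctcfl encodes a paralogue of CTCF, also called BORIS, with a similar zinc finger array and expression known mainly from the male germ line. It had no gene-end peak in either list, although its gene body (chr2:173093609-173119525) carried peaks in both. There were 5 MGE peaks and 8 telencephalon peaks in its window, with 4 and 5 shared. Each list had 2 shared peaks inside the gene. The one at chr2:173107443-173107740 in MGE (298 bp) lay within a telencephalon peak of 535 bp (chr2:173107219-173107753). The other was narrow in both lists, with the narrowest MGE width at chr2:173097321-173097564 and 224 bp in telencephalon (chr2:173097386-173097609). A wide MGE peak 12172 bp below the gene (chr2:173080865-173081437, 573 bp) overlapped 2 telencephalon peaks, of 294 and 177 bp, so the telencephalon list counts 1 shared peak more. An unshared telencephalon peak of 267 bp also lay inside Ctcfl, at chr2:173113900-173114166. Among 2763 genes of like length, 9.19% had as many MGE peaks or more and 6.41% as many telencephalon peaks or more. A predicted protein-coding gene, Gm40011, spans the whole of Ctcfl in the table, and no promoter sequence of Ctcfl was used here.

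The partners that bind DNA through zinc fingers split into Patz1, with a wide shared peak at a start site, and Zfp143, Yy1 and Maz, without one. Patz1, a BTB-domain factor related to Maz, lies at chr11:3289131-3309083 on the forward strand. It has 2 annotated start sites, at 3289131 and 3290457. The peak lay over the downstream one, from 383 bp before it to 172 bp after it in MGE (chr11:3290074-3290629, 556 bp) and from 365 bp before it to 26 bp after it in telencephalon (chr11:3290092-3290483, 392 bp). The peaks began 943 and 961 bp after the upstream start site, just within the 1 kb of the gene end, and none overlapped its promoter window. All 3 peaks in the Patz1 window were shared, in each list. The others lay 4937 bp above the gene (chr11:3314020-3314330 in MGE, 311 bp) and inside Limk2, which encodes a kinase that acts on cofilin (chr11:3347048-3347449, 402 bp). Patz1 was the only member with peaks in its window and no unshared peak in either list.

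All 250 bases before the downstream Patz1 start site lay inside the peaks of both lists. A stretch of 30 of them (chr11:3290246-3290275, forward strand, RefSeq on GRCm38.p6) is shown because it holds the letters CCAGNNGGC, a short form of the core that CTCF contacts. Capitals mark these letters, which lie on the opposite strand.
Patz1: gcgcgccggcGCCGCCTGGcgggcgggagg
The match lay 201 bp before the start site, and AGGNGGC occurred again 179 and 4 bp before it. The stretch lies inside the annotated gene, downstream of the first start site.

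Zfp143 encodes a zinc finger activator, called ZNF143 in human, that binds many promoters and has been placed at promoter-anchored loops. Its gene (chr7:110061689-110095396, forward strand) had a shared peak in the body at chr7:110083827-110084199 in MGE (373 bp) and chr7:110083836-110084369 in telencephalon (534 bp), over 22 kb from the start sites. Its gene-end peak was an MGE one (chr7:110062628-110062879, 252 bp), from 917 to 1168 bp after the nearer start site. Its width percentile in the MGE list was 31.7, and it began 939 bp inside the gene, near the 1 kb limit of a gene end. Telencephalon had instead a peak of 188 bp on the other side of the start, 2301 bp below the gene (chr7:110059201-110059388). The gap between the 2 unshared peaks was 3240 bp.

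Yy1 encodes a ubiquitous zinc finger factor that bridges promoters and enhancers. Its gene (chr12:108792945-108820148, forward strand) was nearly free of peaks. A single telencephalon peak lay in the body (chr12:108811255-108811404), and at 150 bp it had the narrowest width of that list, as did 5.74% of its peaks. The shared peak nearest to Yy1 lay 34621 bp below the gene in MGE (chr12:108757893-108758324, 432 bp) and 34579 bp below it in telencephalon (chr12:108757933-108758366, 434 bp). Those intervals overlapped by 392 bp and covered the start site of the predicted gene Gm33628. Among 2696 genes of like length, 17.5% had no MGE peak in the window and 82.5% had as many as Yy1 or more.

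Maz encodes a zinc finger factor that binds G-rich promoters and has been described as an insulator cofactor of CTCF. The gene is short (chr7:127021450-127027188, reverse strand, 5739 bp). Its body held 1 unshared telencephalon peak of 238 bp (chr7:127025252-127025489), from 990 bp after the nearer start site. The widest intervals near Maz were those of a shared peak 4148 bp below the gene in MGE (chr7:127016755-127017302, 548 bp) and 3821 bp below it in telencephalon (chr7:127016786-127017629, 844 bp, width percentile 99.5). It lay at Pagr1a, which encodes a partner of a histone methyltransferase complex, and in telencephalon it reached its start site and also Prrt2. A further shared peak lay at Cdiptos, 45253 bp below Maz in MGE and 45276 bp in telencephalon.

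**Figure D2:**
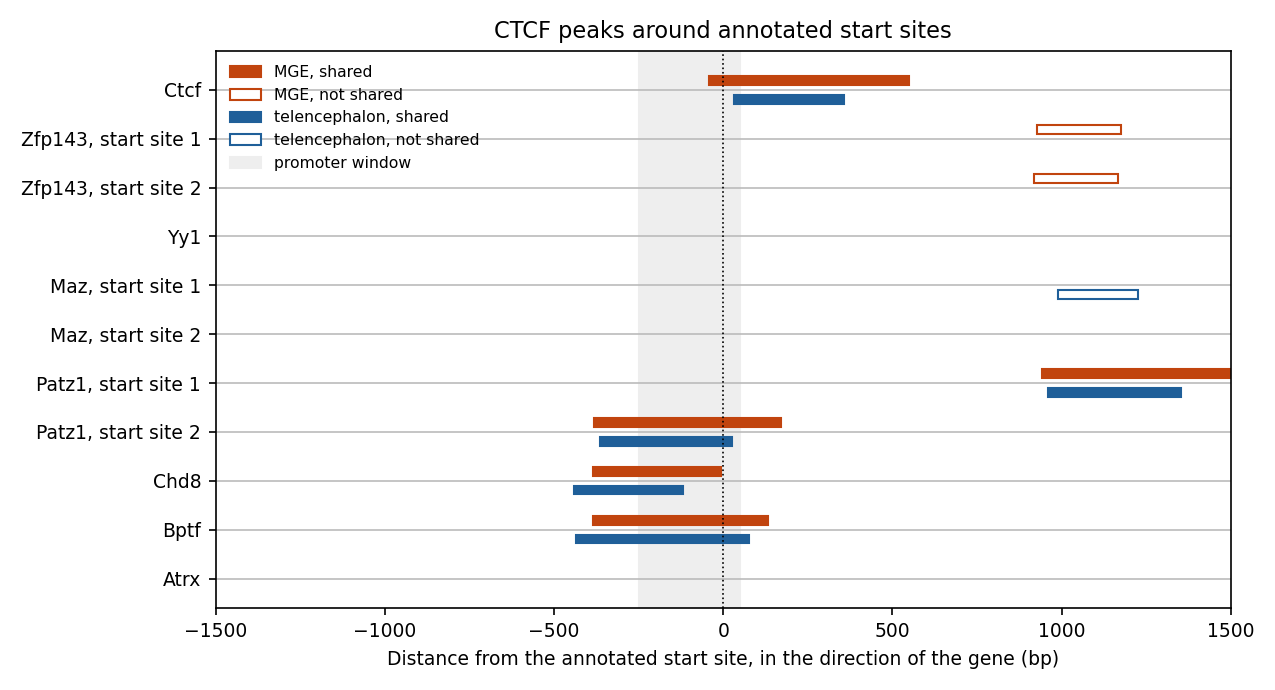
Peaks within 1.5 kb of the annotated start sites of the 8 members that have an entry in the promoter table, in the direction of the gene. Bars show peak extent to scale, MGE above and telencephalon below each line, filled where shared; genes with more than 1 start site have a line for each. Peaks meet the shaded promoter window at Ctcf, the second Patz1 start site, Chd8 and Bptf, in both lists.

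The chromatin remodellers Chd8 and Bptf both carried a shared peak at the 5′ end of the gene. Chd8 encodes a chromodomain helicase that binds CTCF and is a known autism risk gene. It lies at chr14:52198151-52258042 on the reverse strand, with 1 start site in the table. The peak ran from 384 to 8 bp before the start site in MGE (chr14:52257768-52258144, 377 bp) and from 441 to 120 bp before it in telencephalon (chr14:52257880-52258201, 322 bp). The Chd8 peaks were therefore upstream of this start site. The annotated gene extends beyond it, however, and all 250 bases before it lay inside the gene. Both peaks overlapped the upper end of the gene, so their position relative to the start depends on which start is taken. The Chd8 window held 3 MGE peaks, all shared, and 7 telencephalon peaks, of which 3 were shared. Shared peaks flanked the gene on both sides. One lay 2106 bp below it in Supt16, which encodes a subunit of the histone chaperone FACT (chr14:52195649-52196045, 397 bp in MGE and 313 bp in telencephalon). Another lay 21200 bp above it at the Rab2b start site, overlapping Tox4 (chr14:52279242-52279627, 386 bp in MGE and 479 bp in telencephalon). The widest unshared telencephalon peak of all members, 502 bp, lay inside Mettl3, which encodes an RNA methyltransferase (chr14:52295649-52296150), with the nearest MGE peak 16022 bp away.

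Bptf encodes the largest subunit of the remodelling complex NURF and reads methylated histone H3 at active promoters. Its gene (chr11:107033081-107132147, reverse strand) had the most peaks inside it of all members, 4 in each list, with 3 shared. The start-site peak spanned 519 bp in MGE (chr11:107132015-107132533) and 513 bp in telencephalon (chr11:107132071-107132583). It ran from 386 bp before to 132 bp after the start site in MGE and from 436 bp before to 76 bp after it in telencephalon. The other shared peaks lay at chr11:107044411-107044736 (326 bp in MGE, 473 bp in telencephalon) and chr11:107105270-107105647 (378 and 297 bp). The unshared MGE peak inside Bptf again had the narrowest width of the list, and the unshared telencephalon one was 252 bp wide. Among 1322 genes of like length, 3.03% had at least 4 MGE peaks in the body and 10.5% at least 4 telencephalon peaks.

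The upstream 250 bases of Bptf (chr11:107132148-107132397, reverse strand) are shown because the peaks of both lists cover all of them. Of the 250 bases before the Chd8 start site, 243 lay in the MGE peak and 131 in the telencephalon peak, and a stretch of 30 inside both is shown (chr14:52257974-52258003, reverse strand). All 250 lie inside the annotated Chd8 gene. The Bptf and Chd8 sequences come from RefSeq on GRCm38.p6.
Bptf: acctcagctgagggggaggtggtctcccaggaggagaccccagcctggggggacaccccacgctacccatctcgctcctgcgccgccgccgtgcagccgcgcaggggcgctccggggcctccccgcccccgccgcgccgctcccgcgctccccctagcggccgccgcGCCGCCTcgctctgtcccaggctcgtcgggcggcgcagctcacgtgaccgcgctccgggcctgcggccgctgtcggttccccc
Chd8: cgggtttgcaGCGCCCCCagcggcgggggt
In Bptf the capitals mark AGGNGGC on the opposite strand, 83 bp before the start site. In Chd8 they mark GGGGGCGC on the opposite strand, 233 bp before the start site, a run added as further CTCF letters after the promoters had been read. The same run was in the second Maz window, 136 bp before its start site, where neither list had a peak. Over all promoter windows it was in 3.34%, in 22.2% of those under a peak of both lists and in 2.46% of those under neither. Neither the Bptf nor the Chd8 window held CCAGNNGGC.

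**Figure D3:**
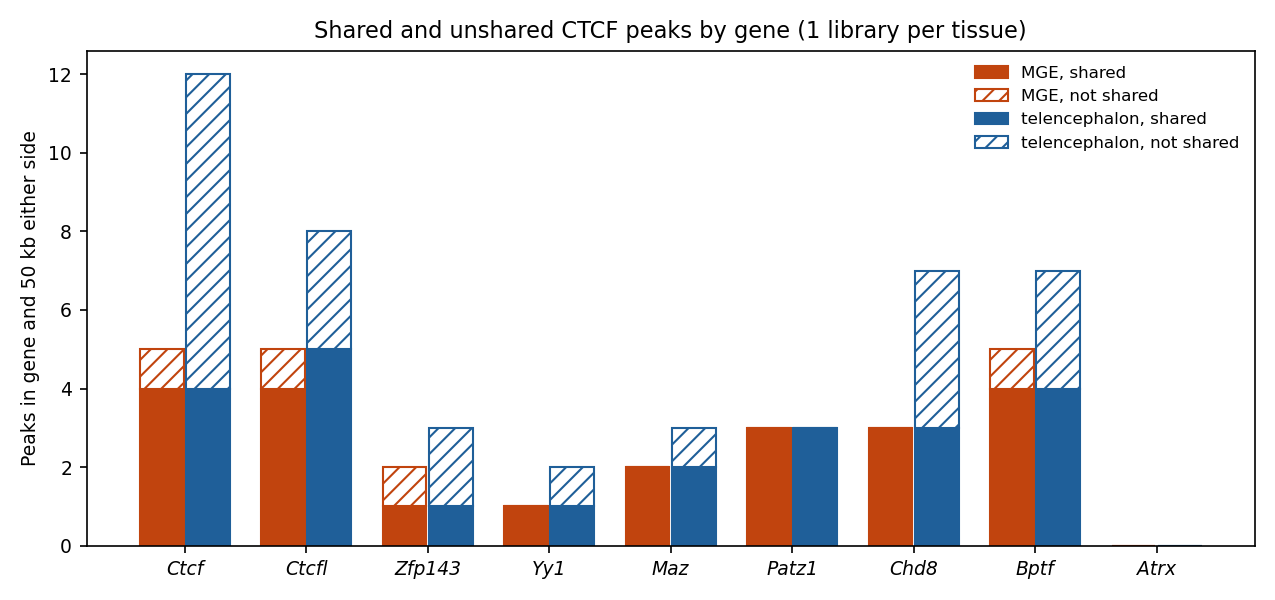
Number of CTCF peaks in each gene and 50 kb either side, in the MGE list and the telencephalon list, divided into shared and unshared peaks. Shared counts are equal in the lists for every gene but Ctcfl (4 and 5), while unshared counts are higher in telencephalon for Ctcf (1 and 8), Chd8 (0 and 4), Ctcfl, Zfp143, Yy1, Maz and Bptf.

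Atrx stood apart, with no CTCF peak inside its 131758 bp or within 50 kb of it in either list. Atrx encodes a helicase that deposits histone H3.3 together with Daxx, and the gene lies on X (chrX:105797615-105929372, reverse strand). The nearest peak was shared. It lay 83937 bp above the gene in MGE (chrX:106013309-106013560, 252 bp) and 83931 bp above it in telencephalon (chrX:106013303-106013645, 343 bp). On the lower side the nearest peaks were unshared and lay at distances of 546349 bp (MGE) and 676106 bp (telencephalon). Atrx thus sat in a stretch of 762.0 kb without an MGE peak and 891.8 kb without a telencephalon peak. Of all gaps between neighbouring peaks, 0.398% in the MGE list and 0.816% in the telencephalon list were at least as long. On X alone these shares were 4.91% of 713 gaps and 5.63% of 711.

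Genes as long as Atrx rarely lacked a peak. Among 1014 protein-coding genes of like length, 8.68% had no MGE peak and 6.11% no telencephalon peak in the gene and 50 kb either side. Of the 966 genes on X, whatever their length, 53.8% had no MGE peak and 42.4% no telencephalon peak in that window. The absence of a listed peak does not show absence of CTCF, since calling limits and depths are unknown.

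Most MGE peaks around the members recurred in telencephalon. Of 26 MGE peaks in the 9 windows, 22 were shared (84.6%, interval 65.1 to 95.6%), against 58.4% of the whole list and 68.1% of MGE peaks within 50 kb of any protein-coding gene. The interval contains the share near any protein-coding gene. Of 45 telencephalon peaks, 23 were shared (51.1%, interval 35.8 to 66.3%), close to the 47.0% of the whole list and the 48.5% near any protein-coding gene. With 1 partner taken for each of the 22 shared MGE peaks, midpoints lay 9.5 to 179 bp apart, with a median of 54 bp. Pairs were defined by overlap, which by itself keeps midpoints close, and no value over the whole lists was computed. The second partner of the wide peak below Ctcfl had its midpoint 327 bp away. The telencephalon peak was the wider one in 10 pairs and the MGE peak in 12. None of the 4 unshared MGE peaks and 22 unshared telencephalon peaks lay within 1 kb of a peak in the other list, the smallest gap being 2354 bp. The same count was not made over the whole lists, so it has no list value beside it.

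Shared peaks around the members had the larger median width in both lists, as over the whole lists, with overlapping ranges. Shared MGE peaks ran from the narrowest width of the list to 591 bp, with a median of 390.5 bp, and the 4 unshared ones from that same narrowest width to 252 bp. Of the 4 MGE peaks at the narrowest width, 3 were unshared and 1, inside Ctcfl, was shared. In telencephalon the medians were 348 bp for shared and 250.5 bp for unshared peaks, and the ranges overlapped (177 to 844 bp and 150 to 502 bp). Member peaks were wider than their lists, with medians of 377.5 bp against 300 bp in MGE and 297 bp against 276 bp in telencephalon. In the widest of 4 width classes, above 376 bp, 14 of 14 member peaks in MGE and 11 of 12 in telencephalon were shared, where the lists gave 88.5% and 79.8%. Applying the lists' own shares by width class to the member peaks gave 72.2% for MGE and 51.1% for telencephalon. The MGE interval contains the first value, and the second equals the observed telencephalon share. Among the wider 50% of peaks of each list, with partners sought there as well, 25 telencephalon peaks lay in the windows and 76.0% were shared. No share over the whole list was computed under that rule, so this value has no list value beside it.

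**Figure D4:**
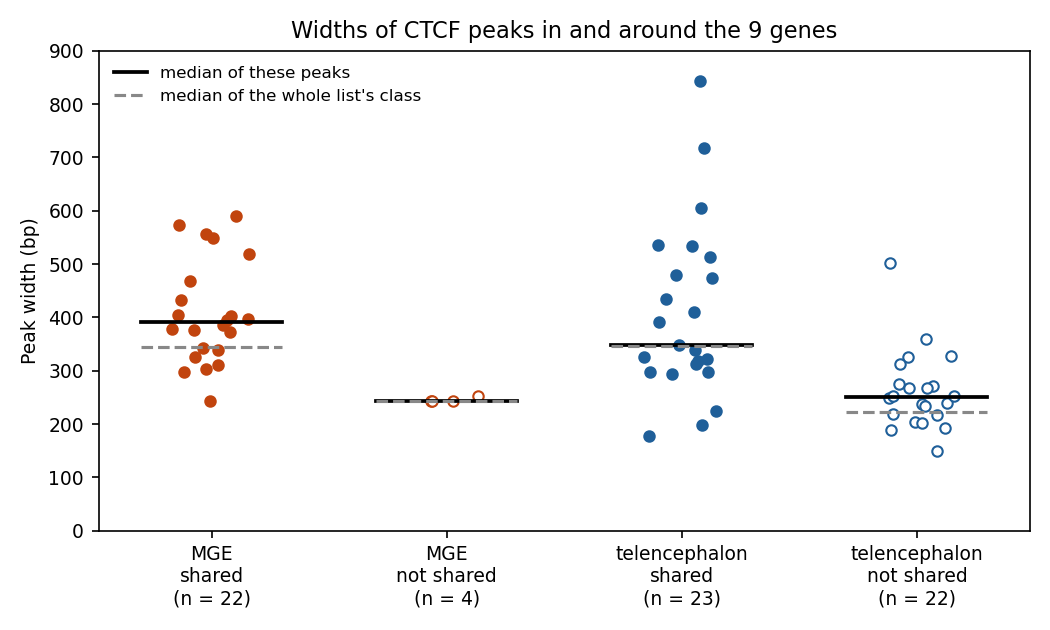
Width in bp of each CTCF peak in and around the 9 genes, by list and by whether it is shared. Solid lines are medians of these peaks (390.5 bp for shared MGE peaks, 250.5 bp for unshared telencephalon peaks) and dashed lines the medians of all shared or unshared peaks of the list; the 4 unshared MGE peaks sit at or near the lower limit of that list.

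The letters of CTCF and of 3 of the members' own factors were searched in the 11 promoter windows of 8 members, each of 300 bp. CCAGNNGGC, on either strand, was in 8.81% of all 32851 windows. It was in 24.2% of the 1101 windows under a peak of both lists and in 8.05% of the 30573 windows under neither, and base composition was not matched. AGGNGGC was in 29.4% of all windows, in 59.6% of those under peaks of both lists and in 27.7% of those under neither. Among the 4 member windows under peaks of both lists, only that of Patz1 held the strict letters. AGGNGGC was in 3 of the 4, those of Ctcf, Patz1 and Bptf, and at Ctcf the match lay outside both peaks. It was also in 4 of the 7 member windows under no peak, both of Maz, the first of Patz1 and that of Yy1. The strict letters were in 1 of those 7.

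Maz and Yy1 held CTCF letters in their promoter windows without a peak there. The first Maz window had a strict match 162 bp before its start site, and 30 bases around it (chr7:127026622-127026651, reverse strand, RefSeq on GRCm38.p6) are shown with the match in capitals as a contrast to Patz1. Those bases lie inside the annotated Maz gene, downstream of its other start site.
Maz: tcgcccccacCCAGGGGGCgtcgccgccgc
The Yy1 window held AGGNGGC 6 times and no peak of either list. A match of letters is a description of sequence, and neither its presence nor its absence shows whether CTCF was bound.

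Letters of the other factors gave a mixed picture. The YY1 letters AANATGGC, found in 6.05% of all windows, were in those of Ctcf, Bptf and Atrx, at 10, 25 and 33 bp after the start site. At Bptf they lay inside the peaks of both lists, and at Ctcf inside the MGE peak alone. The MAZ letters GGGAGGG, in 22.0% of all windows, occurred 2 and 4 times in the Maz windows, 2 times in the Ctcf window and 1 time each in the Chd8 window and the second Patz1 window. The ZNF143 letters ACTACAANT, in 1.49% of all windows, were in none of the 11 member windows.

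Other genes of the same machinery had gene-end peaks about as often as genes in general. Of 36 listed genes 35 were matched, and 4 of these had a gene-end peak in MGE (11.4%, interval 3.2 to 26.7%) and 8 in telencephalon (22.9%, 10.4 to 40.1%). For all genes the shares were 12.1% and 19.3%. The difference from the 9 members was not tested. Of the 5 core cohesin genes, Smc3 carried one in MGE (381 bp) and 2 in telencephalon (312 bp, shared, and 227 bp, unshared), and Stag2 carried one in telencephalon (303 bp). Among 9 genes for loading, release and acetylation of cohesin, those of Pds5b, a cohesin regulator (339 bp in MGE and 384 bp in telencephalon), and Esco1, an acetyltransferase of Smc3 (561 and 617 bp), were in both lists. Adnp, which encodes a homeodomain protein that competes with CTCF at some sites, had one in both lists (389 and 494 bp), alone among 10 genes for other CTCF-linked proteins.

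Close relatives and complex partners of the members were too few to set beside genes in general. In MGE 0 of 4 matched paralogues (interval 0.0 to 60.2%) and 0 of 7 partners in NURF or in histone H3.3 deposition (0.0 to 41.0%) had a gene-end peak, and both intervals contain the 12.1% of all genes. Of the paralogues, Chd7, a helicase closely related to Chd8, had a gene-end peak in telencephalon (304 bp). Of the partners, Rbbp4, a histone-binding subunit of NURF (211 bp), and H3f3b, a gene for histone H3.3 (235 bp), had one in telencephalon. None of these 3 telencephalon peaks was shared, where 47.0% of the whole telencephalon list was. The telencephalon shares of genes with a gene-end peak were 25.0% of paralogues (interval 0.631 to 80.6%) and 28.6% of partners (3.67 to 71.0%). Both intervals contain the 19.3% of all genes. Daxx, the partner of Atrx, had no gene-end peak but 3 MGE and 7 telencephalon peaks in its window, where Atrx had none. Daxx was named after its values were seen. Of all genes, 80.3% had an MGE peak and 82.8% a telencephalon peak in such a window. Smarca1 and Smarca5, the ATPases that work with Bptf, had no gene-end peak in either list.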

How the data were processed

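The peak lists of both CTCF samples were analysed. The submitters' processing notes name Bowtie2 2.3.2, MACS2 2.1.1.20160309 and mm10. Thresholds, control and filters of the peak calling were not given in the sources used here. The authors' deposited lists give a chromosome, start and end per peak and no score, fold or p-value. Track names read p001 for telencephalon and p01 for MGE, whose meaning is not stated, so one list may be the looser one. Sonication aimed at about 500 bp and library kits differed between tissues, per the labels' protocols. Labels alone assigned samples to groups.

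Unplaced and mitochondrial peaks were left out, and the rest were kept on chromosomes 1 to 19, X and Y after conversion to 1-based positions. Gene spans came from a RefSeq table on GRCm38.p6, which includes predicted transcripts and does not separate exons from introns. Start sites and strands came from the RefSeq promoter table, which held 8 of the 9 members. Gene ends were taken as 1 kb, flanks as 50 kb and sharing as 1 bp of overlap. Distances are differences of coordinates. Overlap code was tested on simulated data. Python 3.11.15, pandas 2.3.3, numpy 2.4.6 and scipy 1.17.1 were used. With 1 sample per group no test was run. The planned zinc finger search was not run, since no protein sequences were used here. Named were all 9 members and, of the other genes, those with a gene-end peak in either list; Daxx, Smarca1 and Smarca5 were named after their values were seen. The members and lists were chosen with earlier results of these data known. Alternatives changed the gene-end size, the flank, the peaks kept and the rule for sharing.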

Additional observations from a re-analysis of the deposited data

How the results depend on the processing

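Across 9 alternative settings, 44 of 50 values stayed within 1.5 times the reported count or within the interval of the reported share. Not every value was free to move. The setting with equal numbers of peaks left the MGE list at its 25625 peaks, so the MGE counts there were fixed. Counts of 8 of 9 members could leave the limit of 1.5 times only by falling. The 6 values outside these limits were as follows. Gene ends of 500 bp gave 3 members in MGE, and ends of 5 kb gave 7 in telencephalon. Flanks of 100 kb, which make every window longer, gave 45 MGE and 77 telencephalon peaks. The wider 50% of peaks gave 25 telencephalon peaks, of which 76.0% were shared; that setting removes narrow peaks by construction. The looser CTCF letters were in 3 of 4 member promoter windows under peaks of both lists, and the added letters GGGGGCGC in 1. Sharing by 50% reciprocal overlap or by midpoints within 250 bp gave 84.6% in MGE and 48.9% in telencephalon. No paired analysis was possible because each tissue has 1 CTCF library and the result comes from no test. The lists hold no scores or read counts, so width was the one way to make them stricter, and depth limits cannot be stated.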
